A study of Mus musculus with 6 samples.

Results

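Probes for 10 circadian clock genes were examined in activated mouse CD4 T cells that had received vasoactive intestinal peptide (VIP) or not. VIP is a neuropeptide that acts on receptors that raise cAMP. The genes were Per1, Per2, Per3, Cry1, Cry2, Arntl, Clock, Nr1d1, Nr1d2 and Dbp, and all non-control probes that carry one of these names in the scanner files were taken. They made up 18 of 41174 probes, and all 18 were among the 33262 probes tested. Two-colour Agilent arrays measured total RNA on 6 arrays, and each array set both RNAs of what the labels call a biological replicate side by side.

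One channel held spleen CD4 T cells from the mouse strain C57BL/6J, activated in the presence of VIP by PMA, a phorbol ester, together with ionomycin, which lets calcium into the cell. The other held spleen CD4 T cells of the same strain, activated in the same way without VIP. Both groups therefore shared the activation, and no resting cells were analysed here. Per the labels, the mice were males and females aged 6 to 32 weeks, 5 to 10 spleens were pooled for a sample, CD4 cells were taken with magnetic beads, and 250 ng of RNA was labelled. The dose and duration of VIP, and the clock time at which the spleens were taken, were not given in the sources used here. VIP was in Cy5 on 3 arrays (replicates 1, 3 and 5) and in Cy3 on 3 (replicates 2, 4 and 6).

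The mammalian clock is a transcriptional feedback loop. CLOCK and BMAL1, the product of Arntl, bind E-boxes and switch on the Per and Cry genes, whose proteins return to inhibit them, while REV-ERB alpha and beta (Nr1d1 and Nr1d2) repress Arntl and Dbp drives genes with D-boxes. VIP is the peptide through which neurons of the suprachiasmatic nucleus keep time with one another, and in that tissue cAMP acts through CREB on cAMP response elements of Per1 and Per2. The comparison here asked whether the Per genes, or any other arm of the loop, differed with VIP in T cells.

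Replicate 5 stood apart before any clock gene was considered. Its 3 tested Xist probes had log2 ratios of VIP over untreated of -3.29, -1.91 and -2.13, its Ddx3y probes 4.08 and 3.82, and its Eif2s3y probe 4.18, so its channels differed in sex-linked transcripts. On that array 13.5% of spots were marked as outliers and left out, against 0.574% to 4.44% on the other arrays, and 4 of the 18 clock probes had no value there. Results are therefore also given without it. Between 56.9% and 99.9% of spots were well above background, depending on array and channel, and the precision is limited by the number of arrays. The 5 tested probes of T cell markers (Cd3e, Cd3g, Lck and, for CD4 T cells, Cd4) were well above background on all arrays in both channels. Of these probes 0 passed the test, where 2.13% of all tested probes did. Arrays with VIP in Cy5 lay at position 2 of their slide and those with VIP in Cy3 at position 4, so that position and VIP orientation cannot be told apart.

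The probes are 60 bases long, and some of those described below are shown here. All probes of Nr1d1 are among them, because their values differed. Sequences are the strand printed in the scanner files, with mm9 positions from those files. Stretches that may lie in untranslated regions are shown by their first 30 bases, since positions within exons were not analysed here. No letters are in capitals, as no part of a probe is singled out.
Per1 A_52_P79889, chr11:68922878-68922937, plus strand, first 30 bases: gcttacagcagtctaatgagaggcttcctt
Per2 A_52_P536869, chr1:93336538-93336597, minus strand: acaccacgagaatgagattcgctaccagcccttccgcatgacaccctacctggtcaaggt
Clock A_52_P334670, chr5:76641377-76641436, minus strand, first 30 bases: ttcccatttgagttgctcttgtaatatttt
Nr1d1 A_51_P223776, chr11:98630526-98631028, minus strand: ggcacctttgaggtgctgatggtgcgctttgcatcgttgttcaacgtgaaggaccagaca
Nr1d1 A_52_P130952, chr11:98633332-98633391, minus strand: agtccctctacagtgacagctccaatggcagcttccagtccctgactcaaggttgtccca
Nr1d1 A_52_P130961, chr11:98636435-98636494, minus strand, first 30 bases: tggtgcctcatttctccatcacctacttac
Nr1d2 A_52_P303891, chr14:19037253-19037312, minus strand, first 30 bases: ccagaactgttagtattgcttgtgatgctt
The first of the Nr1d1 probes maps over 503 bases of genome, with a gap of 443 bases inside it, and the Cry2 probe A_51_P135542 maps over 2266 bases.

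Of all 18 probes, 0 passed the test as higher with VIP and 0 as lower (limma, p adjusted by Benjamini-Hochberg over all probes, threshold 0.05), where 1.6% of all tested probes were higher, 0.529% lower and 2.13% either. At an unadjusted p under 0.05 the count was 3 of 18, against 12.9% of all tested probes. The 3 were 1 probe each of Clock, Nr1d1 and Nr1d2, and all had negative log2 ratios. The fitted log2 ratio was below 0 for 14 of the 18 probes, with a median of -0.052. Of all tested probes 49.8% were above 0, and their median was -0.00035. Probes of one gene are no independent measurements, and Clock had 4 of the 18 and Nr1d1 3. By their brightest probes the 10 genes had a median of -0.022. Nr1d1 enters that median at 0.045, by probe A_52_P130961 with values on 3 arrays. Its probe A_51_P223776, with values on 6 arrays, was at -0.21, so the median depends on the choice of probe. The lowest adjusted p of any of the 18 probes was 0.135, or 0.175 without replicate 5. In that fit again 0 passed in either direction, against 2.52% higher and 1.04% lower of all probes. In RNA of a whole population, fewer cells of a type and less RNA per cell cannot be told apart.

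**Figure D1:**
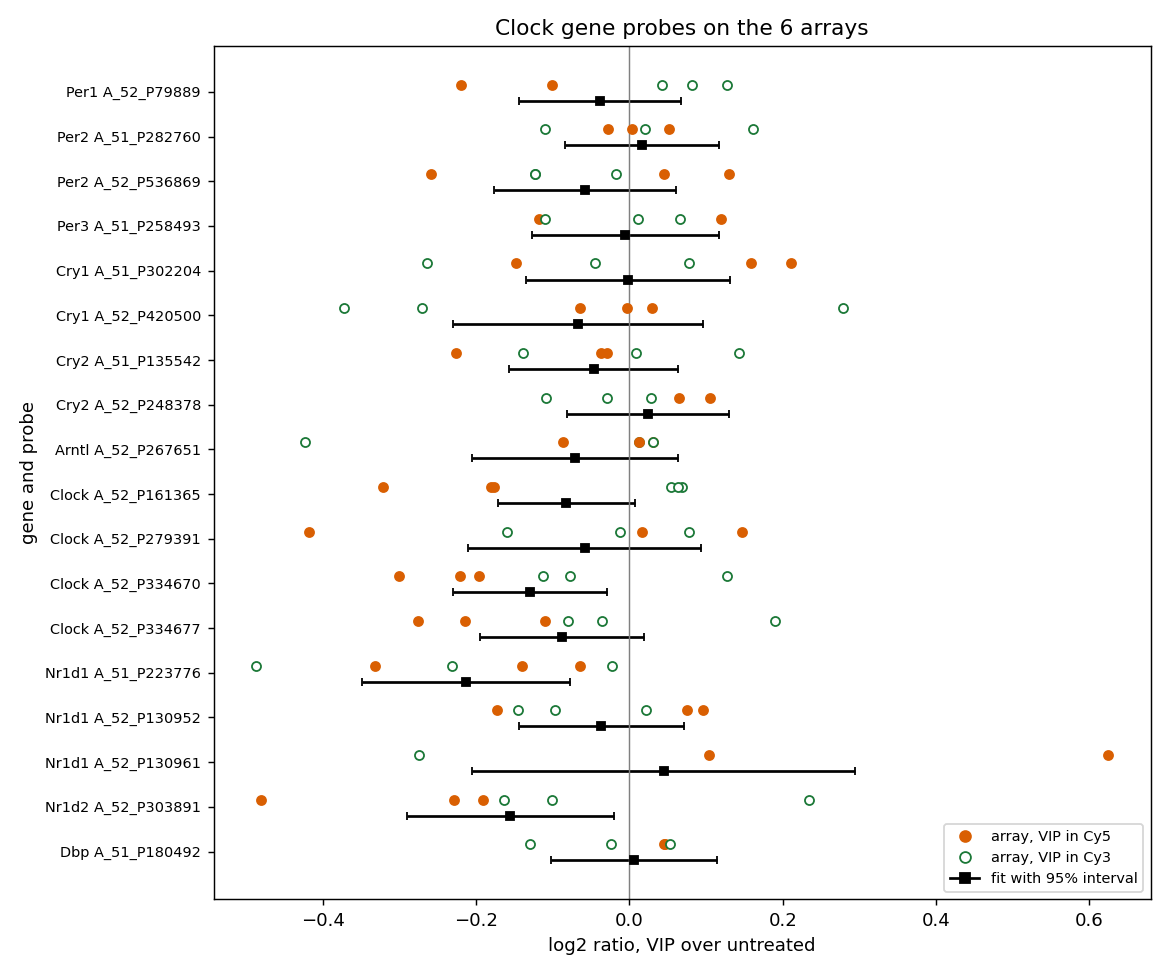
Log2 ratio of VIP over untreated for the 18 clock gene probes. Filled points are arrays with VIP in Cy5, open points arrays with VIP in Cy3, and squares with bars are the fit with its 95% interval. Points lie on both sides of 0 for 17 probes, and the Nr1d1 probe A_51_P223776 lies below 0 on all 6 arrays.

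The Per genes encode the PERIOD proteins, the inhibitors of the loop, and Per1 and Per2 are the members known to answer cAMP. Per1 had log2 ratios of -0.22, 0.082, -0.10, 0.13 and 0.042 on replicates 1, 2, 3, 4 and 6, with no value on replicate 5. It was below 0 on both arrays with VIP in Cy5 and above 0 on the 3 with VIP in Cy3. Its log2 intensity was lowest 13.2, median 13.3 and highest 13.5 with VIP, against 13.1, 13.4 and 13.5 without it. The groups overlapped, and the fitted log2 ratio, which takes out a dye effect of -0.12, was -0.039 ± 0.047 (SE over 5 arrays, limma adjusted p = 0.819). Within slides 1 and 2, where the orientations balance, the means were -0.069 and 0.013.

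Per2 was read by a pair of probes. Probe A_51_P282760 had log2 ratios of 0.0037, -0.11, -0.028, 0.020, 0.052 and 0.16 on replicates 1 to 6, and its fitted value was 0.016 ± 0.045 (SE over 6 arrays, limma adjusted p = 0.937). Probe A_52_P536869 had 0.045, -0.018, 0.13, -0.12, -0.26 and -0.12, with a fitted value of -0.058 ± 0.054 (SE, limma adjusted p = 0.740). The highest array of the one probe, replicate 6, was below 0 by the other, so the probes did not order the arrays alike. Without replicate 5 the second probe had a fitted value of -0.00042. Per3, the third gene of the family, had 0.12, 0.011, -0.12, 0.066 and -0.11 on replicates 1, 2, 3, 4 and 6. Its fit was -0.0053 ± 0.054 (SE over 5 arrays, limma adjusted p = 0.983), and in each channel 5 of 6 arrays had it well above background.

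The range of Per ratios that the reported fit leaves room for can be read from its intervals. Across the 4 Per probes the 95% intervals of the log2 ratio ran from -0.18 to 0.12, which is 0.884-fold to 1.08-fold. The smallest absolute log2 ratio of any probe called in that whole fit was 0.18. These bounds hold for the reported fit only. With Agilent's log ratio, Per2 probe A_52_P536869 was at -0.12 ± 0.10 (SE) and Per3 at 0.051 ± 0.11. There the SE was 0.057 for Per1 and for the other Per2 probe.

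The cryptochromes are the partners of the PERIOD proteins in inhibition. Cry1 probe A_51_P302204 had log2 ratios of 0.16, -0.045, -0.15, -0.26, 0.21 and 0.078 on replicates 1 to 6 and a fit of -0.0016 ± 0.060 (SE, limma adjusted p = 0.995). Cry1 probe A_52_P420500 ran from -0.37 on replicate 4 to 0.28 on replicate 6, with a fit of -0.067 ± 0.074 (SE over 6 arrays, limma adjusted p = 0.792). The array means of slides 1, 2 and 3 for that probe were -0.12, -0.22 and 0.14, so the slides differed in sign. Cry2 had fits of -0.047 ± 0.050 by probe A_51_P135542 and 0.024 ± 0.047 by probe A_52_P248378 (SE, n = 6 and n = 5 arrays, limma adjusted p = 0.786 and 0.905). Each of the 4 cryptochrome probes was above 0 on some arrays and below 0 on others.

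Arntl and Clock encode the partners of the activator. Arntl had log2 ratios of 0.030, 0.012, 0.012, 0.030, -0.087 and -0.42 on replicates 1 to 6. Replicates 1 to 4 lay close to 0, and replicate 6 lay far below the others. Its fit was -0.071 ± 0.061 (SE over 6 arrays, limma adjusted p = 0.708), and without replicate 6 it was 0.0032. The 4 Clock probes had fits of -0.082, -0.058, -0.13 and -0.088, and their adjusted p lay between 0.231 and 0.810. Without replicate 5 the second of them, A_52_P279391, was at 0.025 and the others at -0.059, -0.14 and -0.084. Probe A_52_P334670 had -0.30, -0.11, -0.22, -0.077, -0.20 and 0.13 on replicates 1 to 6, below 0 on 5 of 6 arrays. Its log2 intensity was lowest 9.63, median 10.2 and highest 10.4 with VIP, against 9.71, 10.3 and 10.6 without it, and the groups overlapped. The fit was 0.914-fold (log2 ratio -0.13 ± 0.045, SE over 6 arrays, unadjusted p = 0.0159, limma adjusted p = 0.231). The neighbouring probe A_52_P334677 was also below 0 on replicates 1 to 5 and above 0 on replicate 6. Both are parts of one transcript and are no independent measurements of it.

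**Figure D2:**
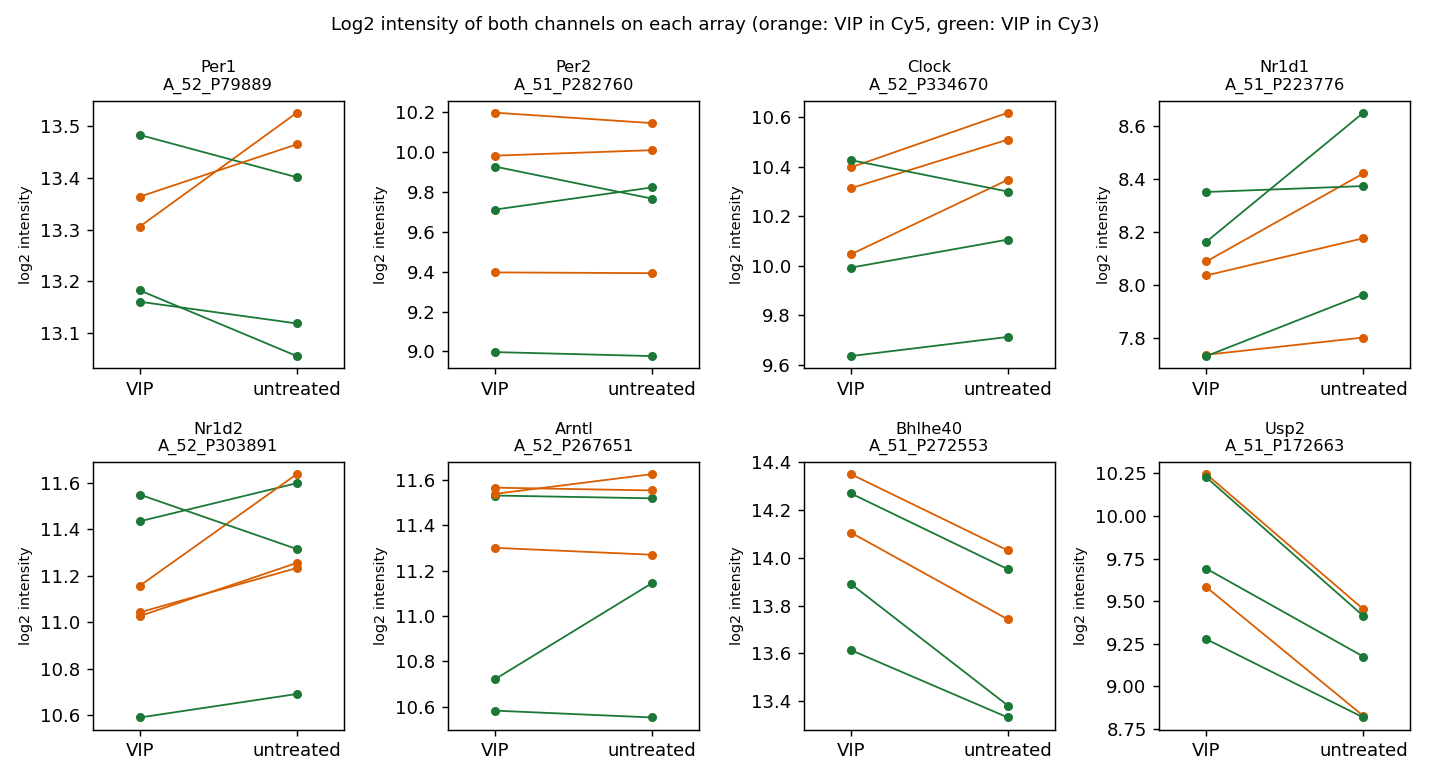
Log2 intensity of the VIP channel (left) and the untreated channel (right) on each array for 6 clock genes and for Bhlhe40 and Usp2, with 1 line an array and its own vertical scale in each panel. Lines run in both directions for Per1 and Per2, slope up towards untreated on 5 of 6 arrays for Clock and Nr1d2 and on 6 of 6 for Nr1d1, and slope down on all 5 arrays with a value for Bhlhe40 and Usp2.

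Nr1d1 and Nr1d2 encode REV-ERB alpha and REV-ERB beta, haem-binding nuclear receptors that silence Arntl. Nr1d1 probe A_51_P223776 had log2 ratios of -0.14, -0.49, -0.065, -0.23, -0.33 and -0.022 on replicates 1 to 6. It was the 1 clock probe below 0 on 6 of 6 arrays, and its slide means were -0.31, -0.15 and -0.18. Its log2 intensity was lowest 7.73, median 8.06 and highest 8.35 with VIP, against 7.80, 8.27 and 8.65 without it, so that the groups overlapped although each array had the same sign. The fit was 0.863-fold (log2 ratio -0.21 ± 0.061, SE over 6 arrays, unadjusted p = 0.00568), which did not pass after adjustment (limma adjusted p = 0.135). Over 20 alternative settings in which it could be fitted, its adjusted p ran from 0.0738 to 1.00 and its log2 ratio from -0.27 to -0.15.

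The other Nr1d1 probes did not show such a value. Probe A_52_P130952 had -0.17, -0.097, 0.096, -0.15, 0.076 and 0.021 on replicates 1 to 6, with a fit of -0.037 ± 0.049 (SE, limma adjusted p = 0.837), and in each channel 4 of 6 arrays had it well above background. Probe A_52_P130961 had values on 3 arrays, 0.62 on replicate 3, 0.10 on replicate 5 and -0.27 on replicate 6, and a fit of 0.045 ± 0.11 (SE, limma adjusted p = 0.926). Its spots on the other 3 arrays were marked as outliers. The 3 probes lie in different stretches of the gene, and whether they read the same transcripts was not tested.

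Nr1d2 had log2 ratios of -0.23, -0.16, -0.19, -0.10, -0.48 and 0.23 on replicates 1 to 6. It was below 0 on replicates 1 to 5 and above 0 on replicate 6, the array that was also above 0 for Clock probe A_52_P334670. The log2 intensity was lowest 10.6, median 11.1 and highest 11.5 with VIP, against 10.7, 11.3 and 11.6 without it. The fit was 0.898-fold (log2 ratio -0.16 ± 0.061, SE over 6 arrays, unadjusted p = 0.0278, limma adjusted p = 0.299). Without replicate 5 it was -0.11, with an adjusted p of 0.413. Dbp, a PAR bZIP factor whose transcript has one of the widest daily swings in many tissues, had log2 ratios of 0.046, -0.024, 0.045, -0.13 and 0.053 on replicates 1, 2, 3, 4 and 6. Its fit was 0.0062 ± 0.048 (SE over 5 arrays, limma adjusted p = 0.978).

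The Per genes were set against the 7 other clock genes array by array, as the difference between their log2 ratios by the brightest probes. Of the 21 pairs, 4 had values on all 6 arrays, all with Per2, and the pairs with Nr1d1 had 2 or 3 arrays because its brightest probe had few values. Per2 was above Clock on 6 of 6 arrays, by 0.15 ± 0.12 (SD). The exact permutation test of sign flips, two-sided, gave p = 0.0313, which 6 arrays cannot go below, and 0.656 after Benjamini-Hochberg adjustment over the 21 pairs. Against Nr1d2 the difference was 0.17 ± 0.21 (SD), above 0 on 5 of 6 arrays (exact p = 0.0938). Against Cry1 it was 0.084 ± 0.18 (SD), above 0 on 4 of 6 arrays, and against Arntl 0.087 ± 0.26 (SD), above 0 on 2 of 6. These values depend on the probe. By its dimmer probe, A_52_P536869, Per2 was above Clock probe A_52_P334670 on replicates 1, 2 and 3 only. On replicates 4, 5 and 6 it had -0.12, -0.26 and -0.12, below the -0.077, -0.20 and 0.13 of that Clock probe. With so few arrays the lowest adjusted p that the 21 pairs allow is 0.0729, so that none could pass and the test is silent on whether the Per genes differ from the others.

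Around these members, 29 further clock pathway genes had a probe on the arrays, and 27 were tested by their brightest probe. Of these, 2 rose, 0 fell and 25 did not pass, where 1.59% of 22890 genes were higher and 0.537% lower. The 2 were Usp2 and Bhlhe40. The median log2 ratio of the 27 genes was -0.016. At an unadjusted p under 0.05 were 16 of the 50 tested probes of the list, against 12.9% of all tested probes.

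Usp2 encodes a ubiquitin-specific protease that in mouse acts on clock proteins. Its probe A_51_P172663 had log2 ratios of 0.76, 0.52, 0.79, 0.46 and 0.81 on replicates 1, 2, 3, 4 and 6. Its log2 intensity was lowest 9.28, median 9.69 and highest 10.2 with VIP, against 8.82, 9.18 and 9.45 without it. All 5 arrays were above 0, and the fit was 1.61-fold higher (log2 ratio 0.69 ± 0.060, SE over 5 arrays, limma adjusted p = 0.000587). A second Usp2 probe, A_52_P255489, had 0.30, 0.22, 0.27, 0.13, 0.49 and -0.23 on replicates 1 to 6, with a fit of 0.20 ± 0.061 (SE) that did not pass (limma adjusted p = 0.171). With Agilent's own log ratio the first probe was at 0.76 and did not pass (limma adjusted p = 0.0616).

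Bhlhe40 encodes DEC1, a repressor that competes with CLOCK and BMAL1 for E-boxes. It had log2 ratios of 0.36, 0.32, 0.32, 0.28 and 0.51 on replicates 1, 2, 3, 4 and 6. All 5 values were above 0, and the fit was 1.28-fold higher (log2 ratio 0.36 ± 0.052, SE over 5 arrays, limma adjusted p = 0.00768). The call was lost without replicate 1 (adjusted p = 0.0851), without replicate 3 (0.0579), with a background offset of 0 (0.120), with median centring (0.239) and with Agilent's log ratio (0.190), while the log2 ratio stayed between 0.32 and 0.40. Its relative Bhlhe41 did not pass, with a log2 ratio of -0.0059 ± 0.047 (SE, limma adjusted p = 0.978).

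A pair of further repressors passed by a dimmer probe but not by their brightest. Nfil3, which blocks D-boxes, had 0.30 ± 0.057 (SE over 6 arrays, limma adjusted p = 0.0248) by probe A_51_P111492 and 0.099 ± 0.046 (adjusted p = 0.401) by its brightest. Cipc, a partner of CLOCK, had 0.23 ± 0.041 (SE over 6 arrays, limma adjusted p = 0.0163) by probe A_52_P366772, 0.18 ± 0.059 (0.192) by another and 0.13 ± 0.049 (0.283) by its brightest. Both called probes were above 0 on 6 of 6 arrays. Each lost its call without replicate 1, 3, 4 or 6 in turn, with Nfil3 at an adjusted p of 0.0704 to 0.117 and Cipc at 0.0656 to 0.0797. Both were also lost with a background offset of 0 (0.175 and 0.116), with Agilent's log ratio (0.230 and 0.154), with median centring (0.263 and 0.515) and without a dye term (0.0905 and 0.0811).

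Of the genes that did not pass, those with the smallest p included the ROR receptor gene Rora, the activator of Arntl that opposes REV-ERB, with a log2 ratio of 0.22 ± 0.063 (SE over 6 arrays, limma adjusted p = 0.121). Csnk1d, a kinase of the PERIOD proteins, had -0.23 ± 0.052 (SE over 5 arrays, adjusted p = 0.0670) by its brightest probe, while its other 3 probes lay between -0.12 and 0.045. Nono, a PERIOD-binding RNA factor, had -0.21 ± 0.053 (adjusted p = 0.0860) by one probe and 0.11 ± 0.051 (0.410) by the other. Ciart, a repressor of CLOCK and BMAL1, had -0.20 ± 0.071 (adjusted p = 0.252), and Hlf, a PAR bZIP factor, 0.13 ± 0.048 (0.274). The F-box gene Fbxw11 had -0.21 ± 0.080 (0.267) by its brightest probe and 0.045 ± 0.083 (0.897) by the other. Without replicate 5 the list had 3 genes higher and 1 lower, with Rora added (adjusted p = 0.0390) and Nono lower (0.0145).

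**Figure D3:**
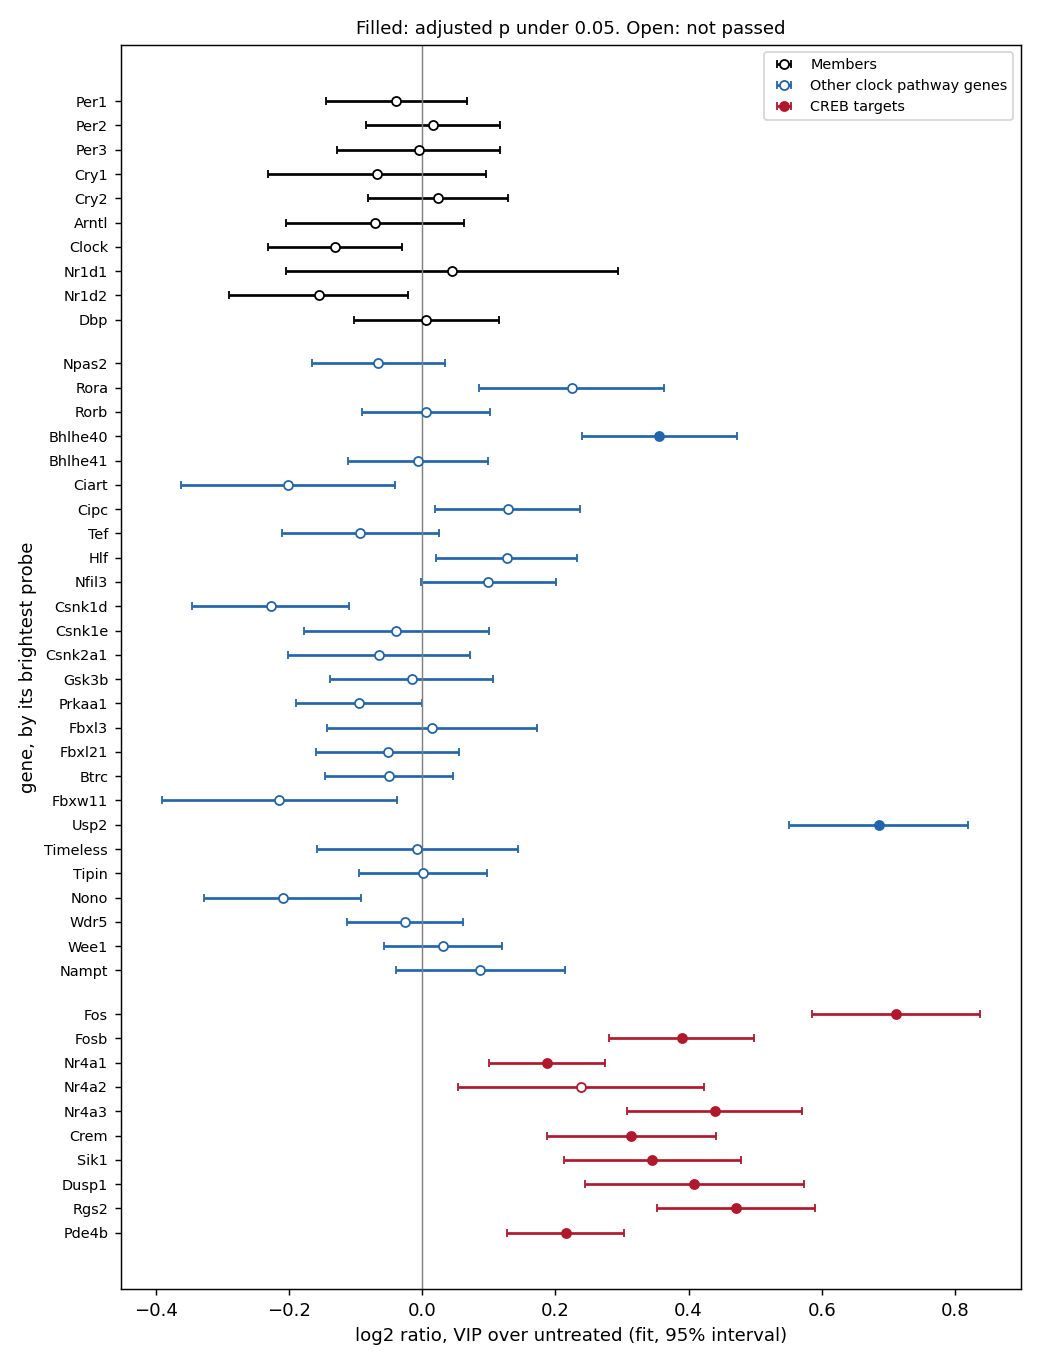
Fitted log2 ratio of VIP over untreated with its 95% interval, each gene by its brightest tested probe, for the 10 clock genes, the other clock pathway genes reported and 10 CREB targets. Filled points have an adjusted p under 0.05. The 10 clock genes are open, Bhlhe40 and Usp2 are filled, and 9 of the 10 CREB targets are filled to the right of 0.

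Genes known as CREB targets in other cells serve as a measure of what cAMP-responsive transcripts did on the same arrays. Of 10 such genes 9 rose, 0 fell and 1, Nr4a2, did not pass, where 1.59% of 22890 genes were higher and 0.537% lower. Their median log2 ratio was 0.37, against -0.022 for the 10 clock genes by their brightest probes. The latter takes Nr1d1 by a probe with values on 3 arrays. Fos, a subunit of AP-1, had log2 ratios of 0.69, 0.62, 0.55, 0.64, 0.82 and 0.96 on replicates 1 to 6, all above 0, and was 1.64-fold higher (log2 ratio 0.71 ± 0.057, SE, limma adjusted p = 0.000219). Crem, a gene of the CREB family, had 0.31 ± 0.055 (n = 4 arrays, adjusted p = 0.0277) by its brightest probe, which was at -0.23 and -0.078 with VIP in Cy5 and at 0.75 and 0.82 with VIP in Cy3. Of its other 5 probes, 4 passed with log2 ratios of 0.49 to 0.64, and 1 had 0.18 and did not. The probe of Nr4a1, one of the 9, was saturated on 1 array. Without replicate 5, where Dusp1 could not be fitted, 8 genes were higher, Nr4a2 among them (adjusted p = 0.00576) but not Nr4a1 (0.0529). These genes were listed with earlier results of these data known, so their count is a description and no independent evidence.

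Of 16 tested probes of markers of other blood cells, 1 was called higher and 0 lower. Of all tested probes, 1.6% were higher and 0.529% lower. The called marker was Cd14, a gene of monocytes and macrophages (log2 ratio 0.57 ± 0.069, SE over 5 arrays, limma adjusted p = 0.00302). The mean log2 intensity of the 14 marker probes with values on all arrays ran from 7.8 to 9.3 with VIP, against 7.67 to 9.29 without it. Single probes were far brighter, with 13.5 for Lyz2 (A_52_P238027), 12.3 for Cd8b1 and 10.9 for Ms4a1 (A_52_P483336). Others were dim, such as Ncr1 at 7.02. Of the T cell markers, the Cd4 probes were at 7.69 and 8.06, Cd3g at 12.0 and Lck at 15.2. The share of each cell type was not tested. Markers of CD8 T cells, B cells, and monocytes and macrophages (Cd8b1, Ms4a1 and Lyz2) were well above background on all arrays in both channels. Some other markers were so on fewer arrays. By number of arrays well above background with and without VIP, Cd8a had 3 and 3 by probe A_51_P345121, and 5 and 6 by A_52_P443334. Cd79a, of B cells, had 5 and 6. Of NK cells, Ncr1 had 4 and 4, and Klrb1c 4 and 4 or 3 and 2, depending on the probe. The part of such cells in the values of Usp2 and Bhlhe40 was not tested.

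Promoter sequences from RefSeq (GRCm38.p6, 250 bases before to 50 after a gene's start) were searched on both strands for the elements named above. Per1 is shown because it is the clock gene best known for cAMP response elements, Usp2 as the clock pathway gene with the largest change, and Fos as a called CREB target. Capitals mark TGACG or CGTCA, the cAMP response element half-site, and CACGTG, the E-box.
Per1, upstream start, chr11:69098699-69098998, plus strand: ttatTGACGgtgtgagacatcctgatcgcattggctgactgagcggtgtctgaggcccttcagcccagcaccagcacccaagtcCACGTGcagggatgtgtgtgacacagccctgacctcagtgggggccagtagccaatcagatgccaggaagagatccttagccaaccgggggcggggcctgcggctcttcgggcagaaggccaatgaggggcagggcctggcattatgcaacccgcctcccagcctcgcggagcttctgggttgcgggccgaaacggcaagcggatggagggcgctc
Per1, downstream start, chr11:69099902-69100201, plus strand: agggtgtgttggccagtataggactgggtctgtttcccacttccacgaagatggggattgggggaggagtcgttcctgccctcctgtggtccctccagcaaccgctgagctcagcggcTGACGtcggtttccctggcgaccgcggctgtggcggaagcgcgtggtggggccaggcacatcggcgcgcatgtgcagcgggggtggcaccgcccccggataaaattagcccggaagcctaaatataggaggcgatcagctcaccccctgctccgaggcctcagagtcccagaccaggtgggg
Usp2, chr9:44084670-44084969, plus strand: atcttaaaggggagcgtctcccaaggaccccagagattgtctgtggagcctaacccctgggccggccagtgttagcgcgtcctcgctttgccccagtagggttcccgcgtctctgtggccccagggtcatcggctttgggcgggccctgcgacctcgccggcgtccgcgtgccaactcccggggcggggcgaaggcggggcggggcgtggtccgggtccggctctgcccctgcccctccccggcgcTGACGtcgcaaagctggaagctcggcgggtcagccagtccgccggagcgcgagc
Fos, chr12:85473640-85473939, plus strand: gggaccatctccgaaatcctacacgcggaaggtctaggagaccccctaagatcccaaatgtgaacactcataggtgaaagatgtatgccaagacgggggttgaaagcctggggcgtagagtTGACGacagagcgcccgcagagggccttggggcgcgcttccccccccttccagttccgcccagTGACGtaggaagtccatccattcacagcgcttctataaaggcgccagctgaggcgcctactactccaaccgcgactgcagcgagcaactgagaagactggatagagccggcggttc
The half-site was in both Per1 promoters and in that of Usp2 with 1 match each, and in that of Fos with 2.

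Of the 10 clock genes, 9 had 1 or more promoters in the table, 13 in all, and Per2 was not matched. The full palindrome TGACGTCA was in 0 of the 13, against 1.8% of 32851 promoters in the table. The half-site TGACG, which every palindrome also contains, was in 4 of the 13, those of Per1, Cry1 and Cry2, against 20.8% of all promoters. It was also in 3 of the 4 promoters of Usp2, Nfil3 and Cipc, and in 8 of the 11 promoters of the 8 matched CREB targets. The E-box CACGTG was in promoters of Per1 and Cry1 (7.2% of all promoters), and the related letters CACGTT in those of Cry1, Cry2 and Nr1d1 (4.7%). The D-box TTATGTAA or TTACGTAA was in that of Per3 (1.1%), and the RORE, the element of ROR and REV-ERB, in one of Arntl (0.4%). These matches describe letters in a window. They are no evidence of binding, and no match says only that the letters are not in it.

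**Figure D4:**
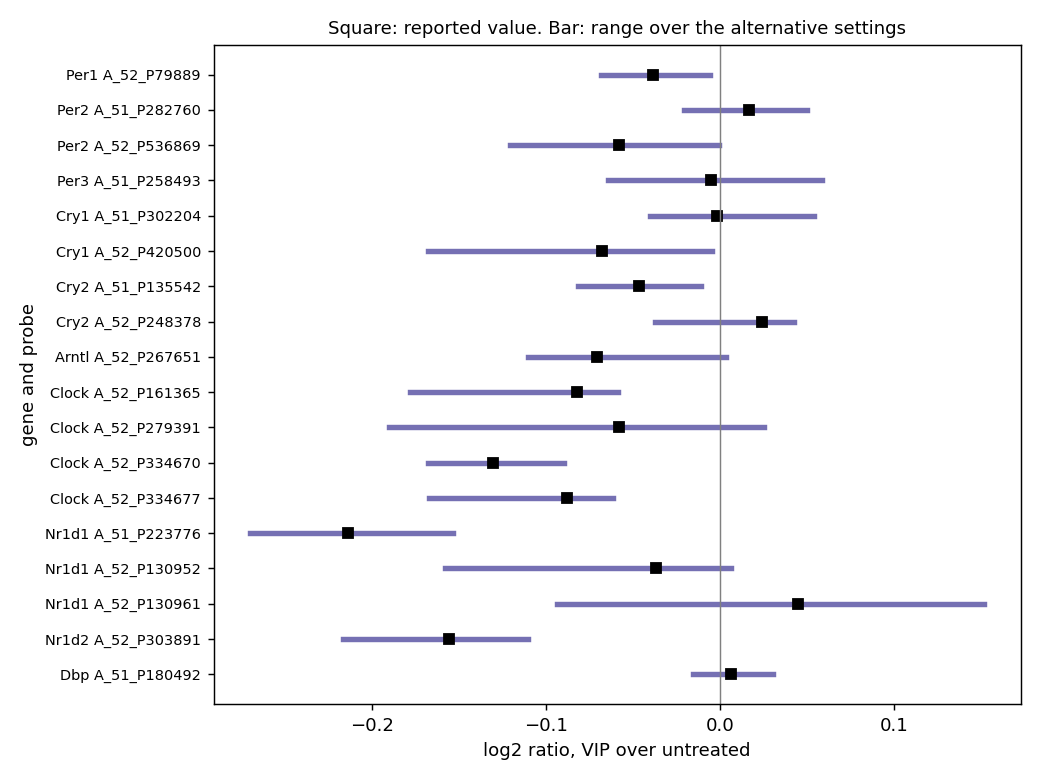
Fitted log2 ratio of each clock gene probe in the reported fit (square) and its range over the alternative settings (bar). Bars of 9 of the 18 probes lie on one side of 0, among them those of Per1, Nr1d2, 3 of 4 Clock probes and Nr1d1 probe A_51_P223776, and 0 of the 18 probes passed in any setting.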

How the data were processed

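Agilent Feature Extraction 9.5.1.1 read the images, per the file headers, and gave mean spot intensity, local background and quality flags (other columns of 0 or 1) per channel. A log10 ratio (red over green) of background-subtracted, dye-normalized signals is also part of the deposited files. The authors' series table holds the same log10 ratios, turned to VIP over untreated (largest difference 4.5e-06, column medians 0 on 5 arrays and -0.00022 on replicate 3). Both were used as alternatives.

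With limma 3.58.1 in R 4.3.3, mean intensity was background-corrected by normexp (median local background, offset 50), and loess was run within arrays, the 1639 control spots having weight 0. Outlier-flagged spots were left out, so some probes have fewer than 6 values, and spots of one probe were averaged. Probes well above background on at least 3 arrays in either channel were tested. The log2 ratio was modelled by a dye intercept plus a VIP effect (lmFit and eBayes, 4 residual and 6.37 prior degrees of freedom), adjusted by Benjamini-Hochberg over all probes, with a threshold of 0.05. Values by array keep the dye effect. The labels call the arrays biological replicates, and p-values measure the spread between them. Each array was fitted as its own pair, also replicate 5, whose channels differed in sex-linked transcripts. The fit was tested on simulated data.

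Genes were named from the files, with old symbols updated through RefSeq accessions or synonyms (24844 probes by accession, 7855 by symbol or synonym, 8475 unchanged). All clock probes are named, with the pathway genes that passed and at most 8 others by smallest p. The clock genes and lists were chosen with earlier results of these data known. Alternatives varied the background, normalization, filter, flags, probe rule, dye term, slide, weights, prior, pairing and replicates. Values of some single genes are left out here.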

Additional observations from a re-analysis of the deposited data

Results flagged for a closer look

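Chance sets apart about 1 in 20 groups of values by the test used here, Dixon's test of the highest or lowest array at its 95% critical value. Of 17 clock gene probes with at least 4 values, 1 had an array set apart. That was Arntl, where replicate 6 had a log2 ratio of -0.4233 and the other 5 arrays lay between -0.087 and 0.030.

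Among 76 probes examined in all, which include those of the other clock pathway genes and of sex-linked transcripts, 11 were set apart. A Rora probe (A_52_P652950) had -0.2499 on replicate 5 and was above 0 on the other 5 arrays. Csnk1e had 0.3671 on replicate 4, with the other arrays below 0. A Fbxl21 probe had -0.2665 on replicate 1.

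The remaining 7 were sex-linked transcripts on replicate 5. The Xist probes had -3.2949, -1.9123 and -2.129, the Ddx3y probes 4.0779 and 3.8191, Eif2s3y 4.1754 and Kdm5d 1.0591. The labels give males and females without saying which pool held which.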

How the results depend on the processing

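In 22 alternative settings, 0 of the 18 clock gene probes passed in either direction, and 9 kept their sign in each setting in which they were fitted. The sign of the other 9 turned in 26 fits. Nr1d1 probe A_52_P130952 was at -0.16 with Agilent's or the authors' ratio, and Clock probe A_52_P279391 at -0.19. The pairs of a Per gene and another clock gene could not pass in the reported form. The same holds for every alternative run with flagged spots left out, those with an array left out among them. Nor could they with the Nr1d1 probe that had values on all arrays, an alternative chosen after seeing the data. In these forms the pairs say nothing on stability. With flagged spots kept, where no array was lost to flags, 0 of the pairs passed. There p cannot go below 0.0313, and a pair could pass only if most pairs reached that floor together. That 0 is therefore no evidence of stability either.

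The counts over all probes, 533 higher and 176 lower, moved with the processing. They were 108 and 9 with a normexp offset of 0 (92.3% higher, against 75.2% in the reported fit), 173 and 9 with median centring (95.1%), 38 and 0 with Agilent's log ratio and with the authors' table (100% each), 226 and 48 without a dye term, and, over 22890 genes in place of 33262 probes, 346 and 91 with the probes of a gene averaged. Array weights gave 322 lower. Taking the channels as unpaired samples, with no replicate block, gave 3 higher, 0 lower and 0 clock pathway genes. Leaving out each array in turn gave 242 to 835 higher and 46 to 345 lower, with the highest of both without replicate 5.

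Clock pathway genes called higher, 2 in the reported fit, were 1 with an offset of 0 and with median centring, 0 with Agilent's log ratio and the authors' table, and 1 to 3 with an array left out. Those called lower, 0 in the reported fit, were 1 with scaling between arrays (Csnk1d), 1 with the slide as a block and 1 with array weights (Nono in both), and 0 to 1 with an array left out. Fewer arrays and the lost pairing enter these counts by construction, and the cause of the other moves was not tested. Probes near the background limit how small a change can be seen in Per3 and Nr1d1 (A_52_P130952).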

Other observations

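Rora, the gene of a receptor that activates Arntl, was read by 3 probes. In the fit of all arrays their log2 ratios were 0.26, 0.22 and 0.16, and 0 of the 3 passed (limma adjusted p between 0.0979 and 0.387). Without replicate 5 they were 0.28, 0.26 and 0.25, and all 3 passed (limma adjusted p = 0.0489, 0.0390 and 0.00823). On replicate 5 the probes had -0.0047, -0.0012 and -0.25.

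Nr4a1, a CREB target, had log2 ratios of VIP over untreated of 1.01, 1.04 and 1.1 on the arrays with VIP in Cy5 and -0.63, -0.71 and -0.68 on those with VIP in Cy3. Its fitted dye effect was 0.86 and its VIP effect 0.19 ± 0.039 (SE, n = 6 arrays, limma adjusted p = 0.0365), with slide means of 0.19, 0.17 and 0.21. The probe was saturated on 1 array. The dye effects of the 18 clock gene probes lay between -0.15 and 0.32. The cause of the dye effect was not tested.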
